A study of Mus musculus with 9 samples.

Results

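The classical MHC class I pathway was followed through 10 genes, a list set by gene name, among the 36528 genes counted in each library. They comprised the light chain B2m, the heavy chains H2-K1 and H2-D1, the peptide transporter subunits Tap1 and Tap2, the loading chaperone Tapbp, the trimming peptidase Erap1, the immunoproteasome subunits Psmb8 and Psmb9 and the class I transactivator Nlrc5. All 10 had reads and all 10 passed the filter on low counts, which left 12250 genes for testing. RNA had been sequenced from Cd11b+ myeloid cells sorted from mouse brain at 11 to 12 months of age, and Cd11b is an integrin chain found on microglia and further myeloid cells. In the Tau-P301L group were 5 libraries from mice with a transgene for tau carrying the P301L mutation, which is known from inherited frontotemporal dementia, and libraries 1 and 2 were female and 3 to 5 male. In the wild-type (WT) group were 4 libraries from littermates that lacked the transgene, and libraries 1 and 2 were female and 3 and 4 male. The labels do not give the promoter that drives the transgene, the strain, or whether each library came from its own mouse, so the p-values below measure the spread between these libraries.

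Nucleated cells cut cytosolic proteins with the proteasome, and interferon exchanges its standard catalytic subunits for the immunoproteasome set. The TAP transporter carries the peptides into the endoplasmic reticulum, where ERAP1 trims them and tapasin holds empty class I molecules at the transporter until a peptide binds. The heavy chain, beta-2-microglobulin and peptide then move to the cell surface, where CD8 T cells read them. In brain, microglia carry little class I at rest and more after exposure to interferon.

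Library totals lay between 1494727 and 3793606 counted reads. They averaged 2.41 ± 0.581 M reads in Tau-P301L libraries, against 3.10 ± 0.483 M reads in WT libraries (SD, n = 5 and 4, exact permutation p = 0.0873), and 3 reads were worth 0.823 to 2.07 CPM (counts-per-million, after the scaling used for levels below) in a library. Markers of microglia were high throughout, with summed levels of 6964 to 12433 CPM in Tau-P301L and 8429 to 11116 CPM in WT libraries. Neutrophil markers summed to 233 CPM in Tau-P301L library 4 and 67.7 CPM in WT library 3, against 0.338 to 18.1 CPM in the rest. Oligodendrocyte markers summed to 1423 CPM in Tau-P301L library 5, against 324 to 693 CPM in the rest. Astrocyte markers summed to 307 to 662 CPM in Tau-P301L and 308 to 414 CPM in WT libraries. The part of these cell types in the member values was not tested. Of 12 measured markers of T and NK cells 7 had 0 reads in every library, Cd3e, Cd3g, Cd8b1, Nkg7, Gzma, Ifng and Ncr1, and the summed level of the list stayed at 0.315 to 3.45 CPM in Tau-P301L and 0.676 to 2.74 CPM in WT libraries. Tau-P301L libraries 3 and 5 stood apart, with a mean Pearson r of log2(CPM + 1) to the rest of 0.865 and 0.846, against 0.885 to 0.905 for the remaining libraries (across 15335 genes).

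The promoters of B2m, H2-K1 and H2-D1 are shown because they carry sequence elements through which class I genes are known to be switched on together. That of Tap1 is shown beside them, and of the letters searched its printed bases held only TGACG. Each promoter is the 200 bases before a RefSeq start site in GRCm38.p6, read 5′ to 3′ on the gene's strand, and the H2-K1 start used lies inside that gene's annotated span. Capitals mark matches to GAAANNGAA (a core of the interferon-stimulated response element, ISRE), GGGGATTCC (a kappa B site), TGACG (the core of a cyclic AMP response element) and CCAAT (the NF-Y box), each searched on both strands, so that ATTGG is CCAAT read on the other strand.
B2m, chr2:122147487-122147686, plus strand: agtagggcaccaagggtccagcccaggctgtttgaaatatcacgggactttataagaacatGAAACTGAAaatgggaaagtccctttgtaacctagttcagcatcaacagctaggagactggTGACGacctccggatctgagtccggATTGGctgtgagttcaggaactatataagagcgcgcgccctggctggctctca
H2-K1, chr17:34000348-34000547, minus strand: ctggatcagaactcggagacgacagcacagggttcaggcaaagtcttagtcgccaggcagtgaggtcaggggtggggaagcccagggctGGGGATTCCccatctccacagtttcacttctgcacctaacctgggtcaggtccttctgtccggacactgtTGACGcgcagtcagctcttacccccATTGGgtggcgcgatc
H2-D1, chr17:35262894-35263093, plus strand: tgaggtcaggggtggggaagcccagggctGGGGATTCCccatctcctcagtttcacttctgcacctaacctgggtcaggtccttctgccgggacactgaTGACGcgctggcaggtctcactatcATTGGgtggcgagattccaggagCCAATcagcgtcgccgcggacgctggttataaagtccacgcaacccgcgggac
Tap1, chr17:34187356-34187555, plus strand: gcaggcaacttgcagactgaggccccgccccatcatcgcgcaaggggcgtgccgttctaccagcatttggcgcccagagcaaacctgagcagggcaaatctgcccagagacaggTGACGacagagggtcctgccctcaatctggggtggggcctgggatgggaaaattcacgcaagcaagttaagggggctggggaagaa
In the promoters of B2m, H2-K1 and H2-D1 the letters TGACG were followed by ATTGG with exactly 20 bases between them. That arrangement occurred in 0.0913% of all 32851 mouse promoters of the RefSeq table (the 250 bases before each start), and H2-M3 was the only other gene of the class I gene lists described below that held it. In class I genes this stretch is known as the X2 and Y part of the SXY module, to which NLRC5 is recruited. The kappa B letters lay in the promoters of H2-K1 and H2-D1 alone of the members and in 0.213% of all promoters. From the kappa B match to the inverted CCAAT the H2-K1 and H2-D1 promoters had 89 of 100 bases in common without a gap.

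The exact letters GAAANNGAA were found in the promoters of B2m and Erap1 and in 7.13% of all promoters. Response elements with other letters are missed by this search, so a promoter without a match may still hold an ISRE. The printed H2-K1 and H2-D1 promoters share the stretch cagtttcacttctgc after the kappa B match, which these letters do not match. TGACG occurred in 5 members, the 3 above with Tap1 and Psmb9, and in 17.8% of all promoters, and CCAAT occurred in 6 members and in 33.8% of all promoters. Tap1 was 1 of these 6, through a match within the 250 bases searched but outside its 200 printed bases. The table had entries for 8 of the 10 members and none for Tap2 or Nlrc5. A match is a string of letters and not a measurement of binding.

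Of the 10 genes 7 lie on chromosome 17, in the mouse MHC. Psmb9 (chr17:34182030-34187330), Tap1 (chr17:34187556-34197225), Psmb8 (chr17:34198195-34201454) and Tap2 (chr17:34204479-34216321) follow one another, and Psmb9 and Tap1 run in opposite directions from start sites 225 bases apart. The Tap1 promoter printed above therefore covers 200 of the bases that lie between them, which are also the bases before Psmb9 read on the other strand. Tapbp (chr17:33919478-33929290) and H2-K1 (chr17:33996012-34000619) lie on one side of this block and H2-D1 (chr17:35263094-35267497) on the other, while B2m is on chromosome 2, Nlrc5 on chromosome 8 and Erap1 on chromosome 13. The counting is not stated to use strand, and GENCODE M21 annotates genes on the opposite strand that overlap all of B2m and parts of Tap1, Psmb9, Tap2, Tapbp, Nlrc5, Psmb8 and Erap1. Among these, Tap1 and Psmb9 overlap one another by 212 bases in that annotation. Zbtb22, with 77 reads in all, overlaps Tapbp by 3422 bases on the same strand.

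Per length, B2m stood far above the other members. On the deposited scale of RPKM rescaled by library (nRPKM), its level averaged 100.6 ± 26.4 (SD over all 9 libraries), which placed it 50th of the 36528 genes. The level of H2-K1 was 17.6 ± 8.37 nRPKM and that of H2-D1 8.12 ± 3.58 nRPKM, so the light chain was 5.71 times H2-K1 and H2-K1 2.17 times H2-D1. B2m was above H2-K1, H2-K1 above H2-D1 and H2-D1 above Tapbp, the next in order, in 9 of 9 libraries each.

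The processing genes formed a lower tier. Tapbp had 3.82 ± 1.51 nRPKM and was above Erap1 in 8 of 9 libraries. Erap1 (2.11 ± 0.460 nRPKM), Psmb8 (1.79 ± 0.604), Tap1 (1.71 ± 0.681) and Tap2 (1.45 ± 0.700) followed, and these neighbours did not differ beyond their spread, since each was above the next in 5 or 6 of 9 libraries for Erap1, Psmb8 and Tap1. Tap2 was above Nlrc5 in 9 of 9 libraries. Nlrc5 (0.503 ± 0.232 nRPKM) and Psmb9 (0.458 ± 0.350 nRPKM) were lowest and not separable, with Nlrc5 above Psmb9 in 3 libraries of 9.

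**Figure D1:**
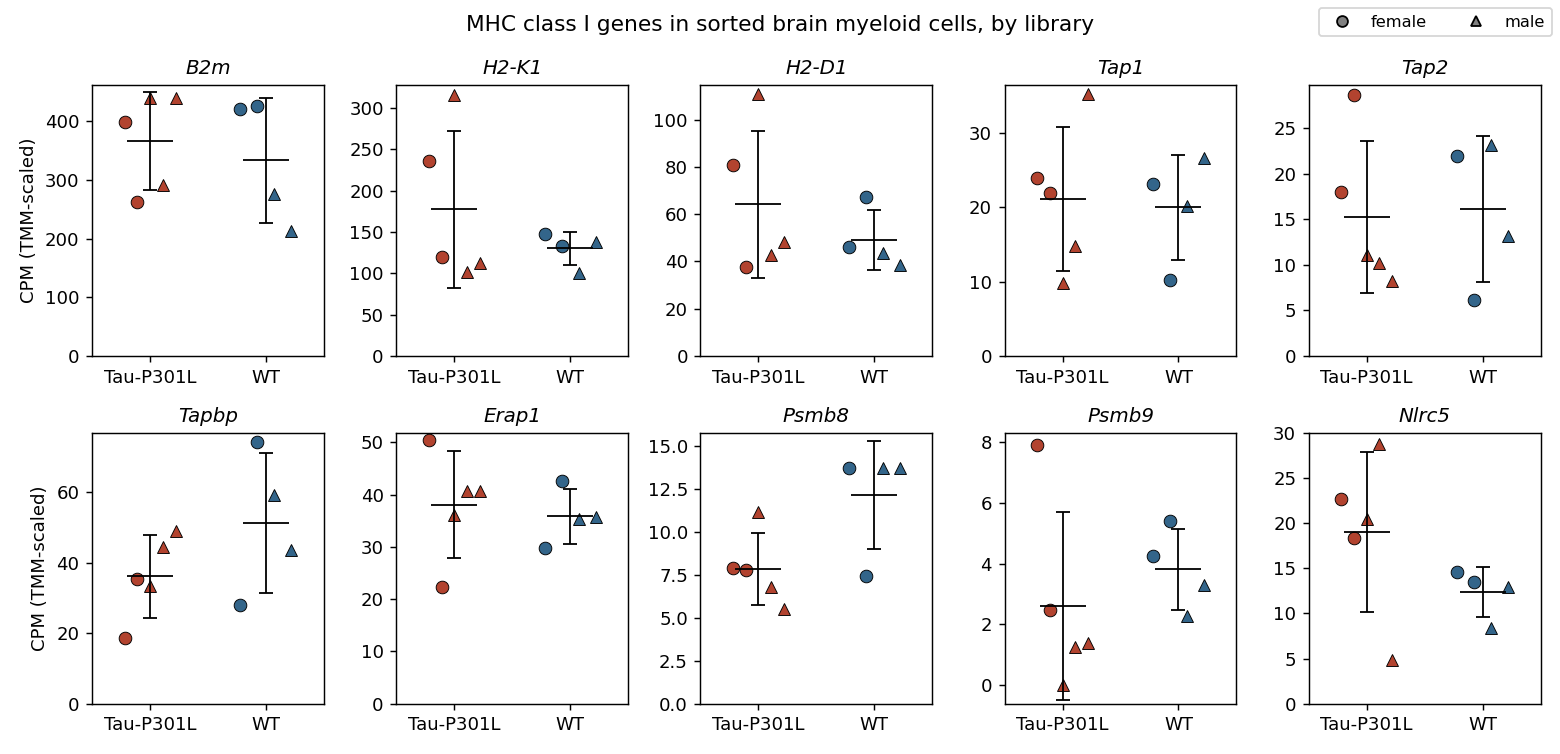
Level of each class I gene in CPM after TMM scaling (y axes from 0, or from just below 0 for Psmb9, different ranges), with Tau-P301L libraries left of WT libraries in each panel. Circles are female and triangles male libraries, the long line is the group mean and the bars are 1 SD (n = 5 and 4); the groups overlap for every gene, and H2-K1 and H2-D1 are highest in Tau-P301L library 3.

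Whether the tau transgene goes with a change in class I genes was asked first across both sexes. None of the 10 genes passed the test, and the 2 groups of libraries overlapped for each of them. Per gene the estimates ran both ways, with 6 members higher and 4 lower in Tau-P301L. Their median log2 fold change was 0.08, beside -0.0007 over all 12250 tested genes, of which 49.9% had an estimate above 0, and it was -0.08 without Tau-P301L library 1 and 0.16 without library 2. edgeR's quasi-likelihood test at an adjusted p of 0.05 called 0 members and 0.00816% of all tested genes (1 gene), DESeq2 called 0 members and 0.196% of genes, and limma-voom 0 members and 0 genes. At an unadjusted p under 0.05 edgeR counted 0 members and 6.35% of all genes. Libraries without overlap were seen for 1.30% of genes as higher and 1.18% as lower. In bulk RNA of sorted cells, a change in the share of a cell type and a change in the RNA per cell cannot be told apart.

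B2m, the invariant light chain that every classical class I molecule needs, had 399.0, 262.7, 439.0, 291.4 and 439.5 CPM in Tau-P301L libraries 1 to 5, against 420.6, 425.5, 276.3 and 212.6 CPM in WT libraries 1 to 4. Each group had high and low libraries and they overlapped across most of their range. The log2 fold change was 0.20 (SE 0.26, 95% interval -0.34 to 0.74, edgeR adjusted p = 0.913). B2m was the most deeply counted member and had the narrowest interval of the 10. Without Tau-P301L libraries 3 and 5 the estimate was -0.11, and without WT library 4 it was -0.0096.

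H2-K1, the K heavy chain, had 236.4, 120.2, 316.1, 101.4 and 112.5 CPM in Tau-P301L libraries, against 147.6, 133.3, 100.7 and 138.2 CPM in WT libraries. Tau-P301L libraries 1 and 3 lay above every WT library and the other 3 lay among them. The log2 fold change was 0.46 (SE 0.32, 95% interval -0.20 to 1.13, edgeR adjusted p = 0.807). H2-D1, the D heavy chain, had 81.0, 37.8, 110.9, 42.8 and 48.3 CPM in Tau-P301L libraries, against 46.3, 67.3, 43.7 and 38.4 CPM in WT libraries. The same 2 Tau-P301L libraries were the high ones, and the log2 fold change was 0.42 (SE 0.35, 95% interval -0.31 to 1.14, edgeR adjusted p = 0.849).

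Both heavy chain estimates rested largely on Tau-P301L library 3: without it they were 0.10 for H2-K1 and 0.11 for H2-D1, and without libraries 3 and 5 together 0.12 and 0.06. Without Tau-P301L library 1 they were 0.29 and 0.28, and without library 2 they were 0.64 and 0.65. The coefficient of variation was 53.5% for H2-K1 and 48.4% for H2-D1 in Tau-P301L libraries, against 15.7% and 25.9% in WT libraries. Tau-P301L library 3 also had the highest summed level of 20 interferon-induced genes, 507 CPM against 221 to 316 CPM in the other Tau-P301L libraries and 211 to 333 CPM in WT libraries. Its dendritic cell markers summed to 187 CPM, against 41.7 to 75.6 CPM in the other Tau-P301L libraries and 20.6 to 80.7 CPM in WT libraries. Each of the 6 marker genes had reads in at least 1 library of the 9, but Xcr1, Cd209a and Ccr7 did not pass the filter on low counts. The sum does not show how many of the 6 were raised. The same library was also the highest in summed microglia markers (12433 CPM), loading chaperones (1560 CPM), immunoproteasome partners (207 CPM) and cross-presentation genes (1538 CPM), and in the mitochondrial share of reads (23.1%, against 9.30 to 20.0% in the rest). The part of any of these in the heavy chain values was not tested.

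The proportion of the heavy chains to one another was compared within each library, where it does not depend on scaling. The H2-K1 to H2-D1 ratio per length was 1.84 to 2.52 in Tau-P301L and 1.57 to 2.86 in WT libraries, with mean log2 ratios of 1.10 ± 0.20 and 1.10 ± 0.40 (SD, n = 5 and 4). The difference in the mean log2 ratio was 0.01 (two-sided exact permutation p = 0.960, adjusted p = 0.960 over 4 ratios), where the smallest p that 5 against 4 libraries allow is 0.00794.

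Tap1, which with Tap2 forms the peptide transporter, had 23.95, 21.9, 9.80, 14.8 and 35.2 CPM in Tau-P301L libraries, against 23.1, 10.1, 20.1 and 26.6 CPM in WT libraries. Tap2 had 18.0, 28.6, 11.1, 10.2 and 8.28 CPM in Tau-P301L libraries, against 21.9, 6.09, 23.2 and 13.2 CPM in WT libraries. For both subunits the groups overlapped across most of their range. Tau-P301L library 5 was the highest of all for Tap1 and second lowest for Tap2. The log2 fold changes were 0.07 for Tap1 (SE 0.43, 95% interval -0.82 to 0.97, edgeR adjusted p = 0.982) and -0.14 for Tap2 (SE 0.48, 95% interval -1.13 to 0.86, edgeR adjusted p = 0.967).

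Tapbp encodes tapasin, which bridges TAP and the empty heavy chain. It had 18.6, 35.4, 33.4, 44.5 and 49.0 CPM in Tau-P301L libraries, against 28.0, 74.1, 59.3 and 43.6 CPM in WT libraries. WT libraries 2 and 3 lay above every Tau-P301L library, and WT library 1 lay below all of them but 1. The log2 fold change was -0.57 (SE 0.35, 95% interval -1.30 to 0.16, edgeR adjusted p = 0.793), the smallest p of the members, and it was -0.20 without WT library 2 and -0.37 without Tau-P301L library 1.

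Erap1, the aminopeptidase that shortens peptides to fit the class I groove, had 50.4, 22.3, 36.1, 40.7 and 40.7 CPM in Tau-P301L libraries, against 29.8, 42.6, 35.3 and 35.7 CPM in WT libraries. Its group means lay close together, with 38.0 ± 10.2 CPM in Tau-P301L libraries, against 35.9 ± 5.24 CPM in WT libraries (SD). The log2 fold change was 0.08 (SE 0.32, 95% interval -0.59 to 0.75, edgeR adjusted p = 0.972).

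Psmb8, the immunoproteasome subunit that replaces Psmb5, had 7.88, 7.78, 11.1, 6.79 and 5.52 CPM in Tau-P301L libraries, against 13.7, 7.44, 13.7 and 13.7 CPM in WT libraries. WT libraries 1, 3 and 4 lay above all 5 Tau-P301L libraries, and WT library 2 lay among them. The log2 fold change was -0.63 (SE 0.47, 95% interval -1.61 to 0.35, edgeR adjusted p = 0.825), and it stayed between -0.79 and -0.51 when any 1 library was left out. Psmb9, which replaces Psmb6, was the most thinly counted member, with 25, 7, 0, 3 and 2 reads in Tau-P301L libraries, against 14, 16, 6 and 12 reads in WT libraries. Its 0 in Tau-P301L library 3 allows up to 1.34 CPM, and its log2 fold change of -0.74 (SE 0.83, 95% interval -2.46 to 0.99, edgeR adjusted p = 0.894) was -1.37 without Tau-P301L library 1, -0.39 without library 3 and -0.29 without libraries 3 and 5.

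Set against the subunit it replaces, Psmb9 had a mean log2 ratio to Psmb6 of -1.95 ± 1.34 in Tau-P301L and -1.06 ± 0.61 in WT libraries (SD, n = 5 and 4). The difference of -0.88 did not pass (two-sided exact permutation p = 0.254, adjusted p = 0.508 over 4 ratios), and it was -0.17 without Tau-P301L libraries 3 and 5, -0.52 without library 3 and -1.39 without library 1. The third exchange, Psmb10 for Psmb7, gave 0.52 ± 1.37 in Tau-P301L and 0.63 ± 0.77 in WT libraries, a difference of -0.10 (two-sided exact permutation p = 0.937, adjusted p = 0.960) that was -0.62 without Tau-P301L libraries 3 and 5. The ratio of Psmb8 to Psmb5 is not given, because Psmb5 had at most 1 read in any library. Psmb6 and Psmb7 were thinly counted too. Together with Psmb5 they had 16 to 45 reads in Tau-P301L and 23 to 36 reads in WT libraries. Both ratios above therefore rest on few reads of the standard subunit.

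Nlrc5, the transactivator of class I promoters, had 22.7, 18.4, 20.5, 28.8 and 4.83 CPM in Tau-P301L libraries, against 14.6, 13.5, 8.36 and 12.9 CPM in WT libraries. Tau-P301L libraries 1 to 4 lay above every WT library and library 5, the shallowest, lay below all of them. The log2 fold change was 0.67 (SE 0.46, 95% interval -0.30 to 1.63, edgeR adjusted p = 0.813). It was 0.87 without Tau-P301L library 5 and 0.42 without library 4, the highest and lowest values with 1 library left out.

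**Figure D2:**
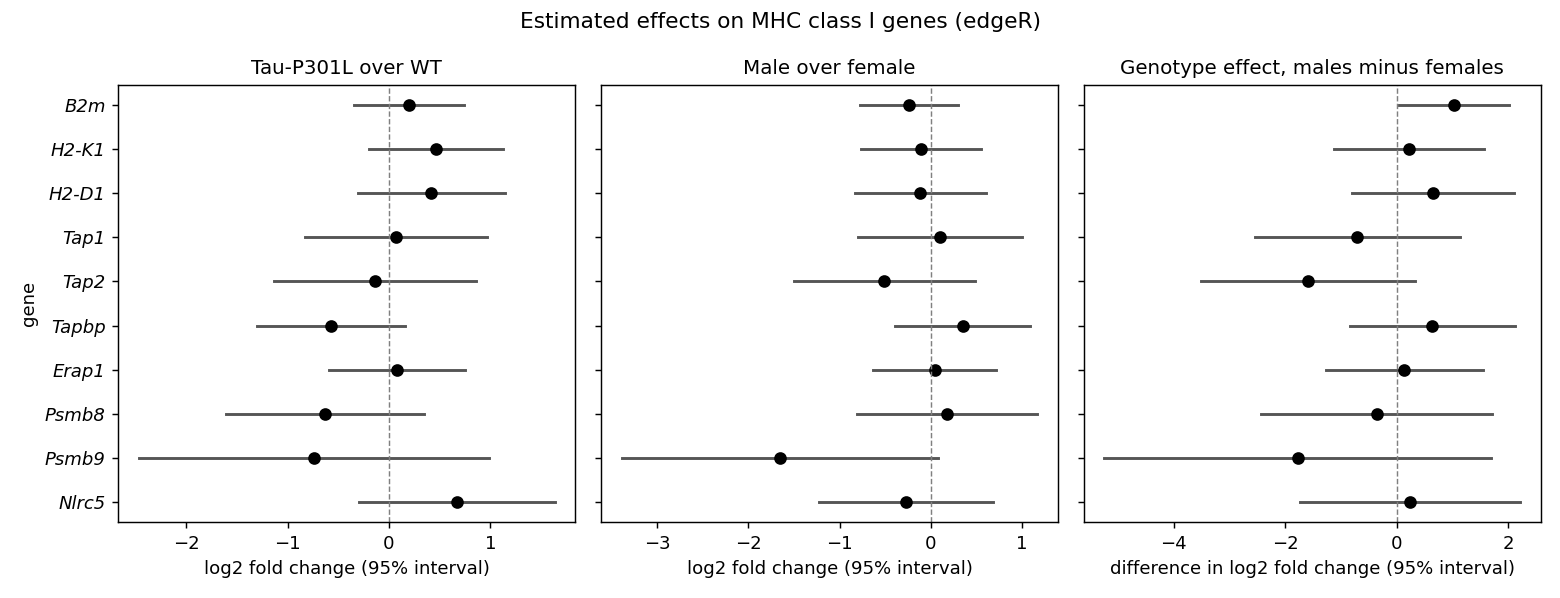
Estimated log2 fold change of each class I gene (points) with its 95% interval (lines) from edgeR, for Tau-P301L over WT, for males over females, and for the genotype effect in males minus that in females (x axes in log2 units, different ranges). In the first 2 panels every interval includes 0, and in the last the interval of B2m runs from 0.04 to 2.01.

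The sexes were compared next. Between males and females, edgeR's test called 0 of 10 members and 0.0490% of all tested genes (6 genes), DESeq2 0 members and 0.0572% of genes, and limma-voom 0 members and 6 genes. The median log2 fold change of the members was -0.11, beside 0.01 over all tested genes, with 4 members higher and 6 lower in males where 51.0% of all genes were higher. That median was 0.08 without Tau-P301L library 1, 0.01 without library 4 and -0.32 without library 3. Of the 10 members 0 had an unadjusted p under 0.05, against 2.43% of all genes. Psmb9 came nearest, at -1.65 (SE 0.83, 95% interval -3.39 to 0.08, edgeR adjusted p = 0.9999, unadjusted p = 0.0602). The other log2 fold changes of males over females were -0.24 for B2m, -0.11 for H2-K1, -0.11 for H2-D1, 0.10 for Tap1, -0.51 for Tap2, 0.35 for Tapbp, 0.04 for Erap1, 0.18 for Psmb8 and -0.27 for Nlrc5. No member's male libraries were clear of its female libraries, where 0.359% of all genes were clear as higher and 0.514% as lower.

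Whether the genotype effect differed between the sexes was tested as the product term. edgeR called 0 members and 0 of all tested genes, DESeq2 0 members and 0.0327% of genes, and limma-voom 0 of either. B2m was the 1 member with an unadjusted p under 0.05 (0.0416, edgeR adjusted p = 0.999), where 3.80% of all genes were. Its genotype effect in males minus that in females was 1.03 (SE 0.47, 95% interval 0.04 to 2.01). The same difference was 0.22 for H2-K1, 0.65 for H2-D1, -0.71 for Tap1, -1.60 for Tap2, 0.64 for Tapbp, 0.13 for Erap1, -0.36 for Psmb8, -1.77 for Psmb9 and 0.23 for Nlrc5.

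Within females B2m averaged 330.8 CPM in 2 Tau-P301L and 423.0 CPM in 2 WT libraries, and within males 390.0 CPM in 3 Tau-P301L and 244.4 CPM in 2 WT libraries. The libraries did not overlap in either sex, and the direction was opposite. Without overlap in either direction were 2 of the 10 members and 33.8% of all tested genes in females, and 5 of the 10 members and 21.5% of all tested genes in males. With groups this small the exact permutation test cannot reach 0.05 within a sex. Tap2 had the signs the other way round. In females it averaged 23.3 CPM with the transgene (Tau-P301L) and 14.0 CPM without it (WT), and in males 9.86 CPM in Tau-P301L libraries and 18.2 CPM in WT libraries, again without overlap in males, and its product term of -1.60 did not pass (SE 0.92, 95% interval -3.51 to 0.32, edgeR adjusted p = 0.999). Psmb8 and Psmb9 had no overlap within males, Psmb8 at 7.81 CPM in Tau-P301L males against 13.7 CPM in WT males and Psmb9 at 0.884 CPM in Tau-P301L males against 2.79 CPM in WT males. Erap1 did not overlap in males either, at 39.2 CPM in Tau-P301L males against 35.5 CPM in WT males, nor Nlrc5 in females, at 20.5 CPM in Tau-P301L females against 14.1 CPM in WT females.

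**Figure D3:**
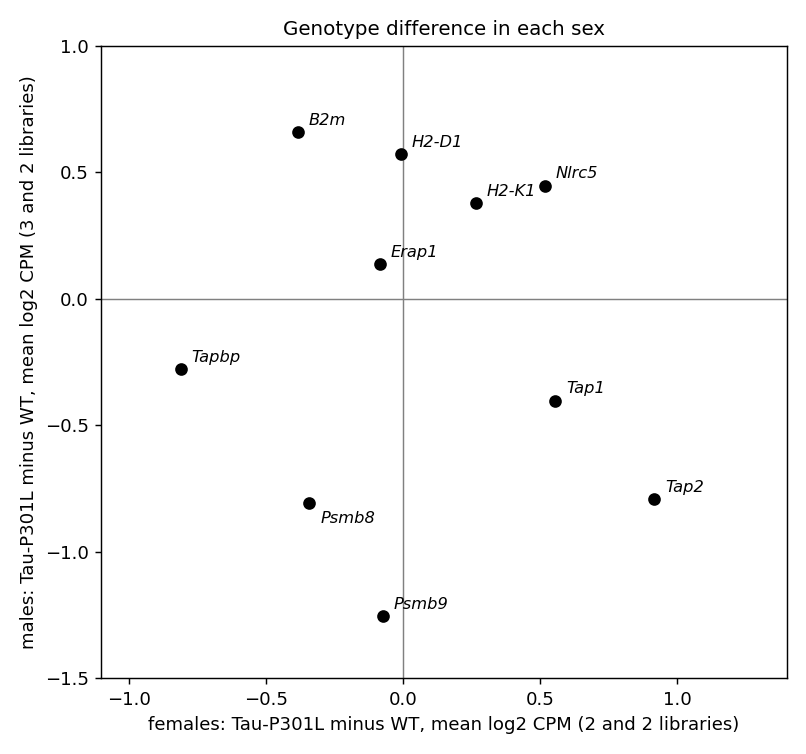
Tau-P301L minus WT difference in mean log2 CPM of each class I gene within females (x axis, 2 and 2 libraries) and within males (y axis, 3 and 2 libraries). B2m lies at -0.38 in females and 0.66 in males and Tap2 at 0.92 and -0.79, so both have opposite signs in the sexes, while Psmb8 and Tapbp are below 0 and Nlrc5 and H2-K1 above 0 in both.

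The members did not vary as one group across the 9 libraries. Of 45 pairs, 19 had a positive and 26 a negative Pearson correlation of log2 CPM, with a median r of -0.07, and 0 pairs passed after adjustment over the 45. The highest was H2-K1 with H2-D1 (r = 0.87, permutation p = 0.00585, adjusted p = 0.263; Spearman's rho = 0.57, permutation p = 0.121). Without the 2 libraries farthest from the median of H2-K1, Tau-P301L 3 and 1, r was 0.19. Leaving out the farthest libraries narrows the range of H2-K1, which by itself can lower r. The fall therefore does not settle how far the relation rested on those 2 libraries. B2m with H2-D1 followed (r = 0.69, permutation p = 0.0326, adjusted p = 0.734; rho = 0.80, permutation p = 0.0138), and was 0.56 without WT library 4 and Tau-P301L library 2.

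**Figure D4:**
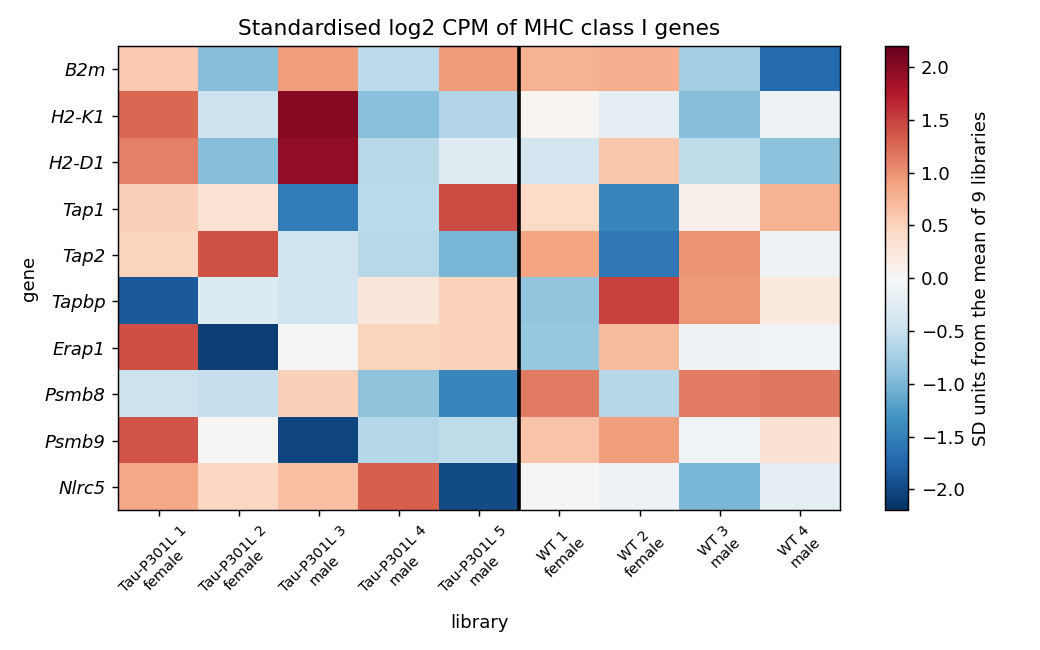
Log2 CPM of each class I gene in each library, standardised per gene over the 9 libraries (colour scale in SD units from the gene's mean), with Tau-P301L libraries left of the line and WT libraries right of it. Tau-P301L library 3 is high for H2-K1 and H2-D1 and low for Psmb9 and Tap1, and no column is high or low for all 10 genes.

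No library was high or low for all members. Tau-P301L libraries 1, 3 and 5 were each the highest for 2 members. The mean of the standardised values over the 10 members was 0.53, -0.30, 0.16, -0.27 and -0.25 SD units in Tau-P301L libraries 1 to 5 and 0.18, 0.05, -0.03 and -0.06 in WT libraries 1 to 4. The 5 other tested genes whose log2 CPM followed this mean most closely over the 9 libraries were Camkmt (Pearson r = 0.96), Pcmtd1 (0.93), Lypla2 (0.92), Klhl7 (0.91) and Zup1 (0.90), the highest of 12240 compared. No test was run on these 5 correlations, and picking the highest of 12240 over 9 libraries can give such values by chance.

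Other genes of the pathway were taken from lists, and 0 of them passed edgeR's genotype test. Of 15 non-classical class I and class I-like chains 8 were tested, 5 higher and 3 lower in Tau-P301L, with a median log2 fold change of 0.39. H2-T23, which encodes Qa-1, averaged 2.29 ± 0.874 CPM in Tau-P301L and 4.80 ± 2.17 CPM in WT libraries (log2 fold change -0.95, SE 0.72, edgeR adjusted p = 0.830). H2-Q6, of the Qa-2 region, was at 1.02 (SE 0.83, edgeR adjusted p = 0.848) with 21, 11, 8, 12 and 4 reads in Tau-P301L and 6, 10, 0 and 13 in WT libraries. The 0 belonged to WT library 3, which also had 0 reads of H2-T10 and H2-T22 and 1 of H2-Q4, although its total of 2897323 reads was not low. In CPM, which takes no account of gene length, H2-T24 was the highest of these chains. It had 96.5 ± 19.3 CPM in Tau-P301L libraries, against 98.3 ± 20.4 CPM in WT libraries. Only reads with a single alignment were counted, so near-identical class I genes can lose reads, and alleles that differ from the reference strain can lose more.

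Loading chaperones and ER entry genes had 1 member higher and 6 lower of 7 tested, with a median of -0.33. Tapbpl, the tapasin-related peptide editor, was at -0.69 (SE 0.41, edgeR adjusted p = 0.789) and Bcap31, an ER export factor of class I, at -0.55 (SE 0.44, edgeR adjusted p = 0.840). Proteasome partners of the immunoproteasome were 3 higher and 1 lower of 4 with a median of 0.36, led by Psmb10 at 0.72 (SE 0.53) and Psme1, of the proteasome activator PA28, at 0.26 (SE 0.32). Of the standard catalytic subunits Psmb7 was at 0.62 and Psmb6 at 0.04. Cytosolic and endosomal peptidases were 6 higher and 1 lower of 7 with a median of 0.09, with Nrdc at -0.44 (SE 0.21, edgeR adjusted p = 0.776) and the giant peptidase Tpp2 at 0.43 (SE 0.26).

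Regulators of class I promoters were 9 higher and 6 lower of 15 with a median of 0.03. Rfx5, the factor that binds the X1 box beside the printed elements, was at 0.62 (SE 0.36, edgeR adjusted p = 0.789) and Nfkb1 at 0.32 (SE 0.28). Interferon receptors and kinases were 3 higher and 5 lower of 8 with a median of -0.08, led by Jak2 at 0.80 (SE 0.35, edgeR adjusted p = 0.776) and Jak1 at 0.34 (SE 0.24, edgeR adjusted p = 0.822). Interferon-induced genes were 12 higher and 4 lower of 16 with a median of 0.58. Among them Ifit1 at 2.25 (SE 0.62, edgeR adjusted p = 0.505) and Zbp1 at 2.17 (SE 0.71, edgeR adjusted p = 0.658) were the 2 whose libraries did not overlap, both higher in Tau-P301L. Of all 12250 tested genes 49.9% had a higher estimate and 1.30% were higher without overlap. The cross-presentation list, the route by which endocytosed protein reaches class I, was 5 higher and 5 lower of 10 with a median of 0.0049, with Rab27a at -0.59 (SE 0.36) and Stx4a at -0.53 (SE 0.33).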

How the data were processed

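Each of the 9 files covered 1 library. It lists raw counts per gene and RPKM values. Per the file headers, the authors counted reads with a unique alignment for each gene model and multiplied RPKM by a size factor for each sample. The submitters' processing notes name GSNAP and GRCm38, while the annotation, read filters and use of strand were not given in the labels or headers. Symbols and positions came from RefSeq (GRCm38.p6), which matched 31049 of 36528 gene numbers.

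Counts were fitted with edgeR 4.0.16 (R 4.3.3), using TMM scaling, the default low-count filter, robust dispersions and terms for sex and genotype (6 residual degrees of freedom, biological coefficient of variation 0.464), with Benjamini-Hochberg adjustment over 12250 genes. A further fit added the product of sex and genotype. Standard errors were derived from the F statistic. Intervals cover 95%. Levels are CPM after TMM scaling, and levels between genes use the deposited nRPKM. Ratios added 1 read to each count, divided by relative gene length and were compared by an exact permutation test over libraries. DESeq2 1.42.0 and limma-voom (limma 3.58.1), other scalings and filters, and leaving out libraries were the alternatives. No 2 libraries agreed within counting noise. Floors of 3 reads cover counting error only.

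The members, the gene lists and the tests were chosen with earlier results of these data known. All members are named in every comparison. Of each list the 2 genes of smallest genotype p are named, since none passed. H2-T24, H2-T10, H2-T22, H2-Q4 and H2-M3 were named after their values were seen.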

Additional observations from a re-analysis of the deposited data

Results flagged for a closer look

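Within each group of libraries, the log2 CPM of each member was searched for a library far from the rest by Dixon's test. This covered 20 groups in all, where chance picks out about 1 in 20. Gaps and ranges below are on the log2 scale, while levels are printed in CPM. Nlrc5 in Tau-P301L library 5 stood apart at 4.83 CPM, with a gap to its nearest neighbour that was 0.739 of the group's range (critical value 0.71). Psmb8 in WT library 2 stood apart at 7.44 CPM, with a gap of 0.991 of the range (critical value 0.829), since the other 3 WT libraries all had 13.7 CPM.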

How the results depend on the processing

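No paired analysis was possible because the replicate numbers were given in accession order and pair no libraries. Members called stayed at 0 for genotype, sex and their product under every alternative run, and the smallest genotype adjusted p of any member was 0.546 (H2-K1, without Tau-P301L library 4). Over all genes, the genotype count of 1 became 24 with DESeq2, 0 with limma-voom, 26 with no filter on low counts, 0 without Tau-P301L libraries 3 and 5, 0 in females alone, 0 in males alone and 0 to 1 with each library left out. The sex count of 6 became 16 with no filter and 10 without those 2 libraries, and the product term's count of 0 became 4 with DESeq2, 22 with no filter, 1 without those 2 libraries and 0 to 4 with each library left out. The estimate changed sign with limma-voom for Tap1 (-0.0089) and Tap2 (0.13), without Tau-P301L libraries 3 and 5 for B2m (-0.11) and Tap2 (0.17), in females alone for B2m (-0.35), Tap2 (0.72) and Psmb9 (0.11), and in males alone for Tap1 (-0.24). With each library left out the range was -0.22 to 0.28 for Tap1, -0.53 to 0.22 for Tap2, -0.14 to 0.27 for Erap1 and -0.0096 to 0.41 for B2m, and that of the log2 ratio difference was -1.39 to -0.52 for Psmb9 over Psmb6, -0.62 to 0.32 for Psmb10 over Psmb7 and -0.14 to 0.15 for H2-K1 over H2-D1. The members' median ranged from -0.08 to 0.16 for genotype and from -0.32 to 0.08 for sex. The cause was not tested. The ratio of Psmb8 to Psmb5 was not run under the alternatives, and Psmb9 was not tested in males alone or under the stricter filter. Psmb9, with 0 to 25 reads in a library, had an interval of -2.46 to 0.99, so these counts do not exclude a change anywhere in that range.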
